A study of Mus musculus with 9 samples.

Results

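Lpl, Gpihbp1, Cd36, Slc27a1, Acsl1 and Fabp4 take fatty acids from lipoproteins in the blood into the fat cell and prepare them for storage or oxidation. They were taken by name as a set of genes of fatty acid uptake and activation, and all 6 are among the 3958 genes of the count table. RNA was sequenced from adipose tissue of male C57BL/6J mice, a common inbred strain prone to diet-induced obesity, at day 21. The 3 libraries labelled EA (numbers 5, 7 and 8) came from mice given electroacupuncture, the stimulation of acupuncture points by current through inserted needles. The other 6 libraries carry the title prefixes MPX (numbers 2, 5 and 7) and CPX (numbers 4, 6 and 8), and the labels give them no named treatment. The series design speaks of a normal diet, a high-fat diet and a high-fat diet with electroacupuncture, but no label ties MPX or CPX to a diet, so no difference is given a diet direction here. The fat depot is not named. No label says that every library is its own mouse, so the spread behind each p-value is that of these libraries and may be technical.

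Fat cells secrete lipoprotein lipase, the product of Lpl, and GPIHBP1 on the endothelial cell carries it across to the capillary lumen, where it splits the triglycerides of chylomicrons and very low density lipoproteins. The freed fatty acids pass the plasma membrane with the help of CD36 and of FATP1, the product of Slc27a1. Inside the cell ACSL1 joins them to coenzyme A, the step called activation, and FABP4 carries them through the cytosol. Cd36 and Fabp4 are also expressed by capillary endothelial cells and macrophages. Most of these genes are known targets of PPARγ, the nuclear receptor that drives fat cell formation.

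Each of the 6 genes is annotated as protein coding, and its position is the same in the authors' table (mm10) and in GENCODE M21. Lpl has 10 exons in its principal transcript and lies on the plus strand at chr8:68880491-68907448. Gpihbp1 has 4 exons and lies on the plus strand at chr15:75596628-75599481. Cd36 has 15 exons and lies on the minus strand at chr5:17781690-17888801. Slc27a1 has 14 exons and lies on the plus strand at chr8:71568882-71587302. Acsl1 has 21 exons and lies on the plus strand at chr8:46471037-46536051, where it overlaps Gm45244, an unclassified gene of the minus strand. Because the strand setting of the counting is not given, reads of those overlapping genes cannot be told apart. Fabp4 has 4 exons and lies on the minus strand at chr3:10204088-10208576.

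Promoter entries were found in RefSeq for 3 of the 6 genes, Cd36, Slc27a1 and Acsl1, and not for Lpl, Gpihbp1 and Fabp4. They hold 6 windows, of which the first of each gene is shown. All 3 genes with entries are thus shown. The ratio of the transport pair Cd36 and Slc27a1 was lower in every EA library than in every other library. That separation did not pass (exact permutation adjusted p = 0.45), and a link between it and these windows was not tested. Acsl1 acts in the step after the transport pair. Each line gives the 250 bases before the annotated start on the gene's own strand, 5′ to 3′ (GRCm38.p6). Capitals mark matches to the motifs searched on both strands, which were the single PPAR and RXR site AGGTCA, its direct repeat AGGTCANAGGTCA (which holds that site), the GC box GGGCGG, the CCAAT box CCAAT and the TATA box TATAAA.
Cd36 (minus strand): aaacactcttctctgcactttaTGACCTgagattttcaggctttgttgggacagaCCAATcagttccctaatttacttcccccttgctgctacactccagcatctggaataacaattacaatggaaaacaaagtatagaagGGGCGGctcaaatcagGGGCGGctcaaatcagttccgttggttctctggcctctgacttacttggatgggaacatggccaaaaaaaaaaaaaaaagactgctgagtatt
Slc27a1 (plus strand): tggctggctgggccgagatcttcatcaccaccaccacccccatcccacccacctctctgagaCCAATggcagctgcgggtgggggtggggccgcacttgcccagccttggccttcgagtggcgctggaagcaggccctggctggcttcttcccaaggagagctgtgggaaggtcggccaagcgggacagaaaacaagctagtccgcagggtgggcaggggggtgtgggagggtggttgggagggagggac
Acsl1 (plus strand): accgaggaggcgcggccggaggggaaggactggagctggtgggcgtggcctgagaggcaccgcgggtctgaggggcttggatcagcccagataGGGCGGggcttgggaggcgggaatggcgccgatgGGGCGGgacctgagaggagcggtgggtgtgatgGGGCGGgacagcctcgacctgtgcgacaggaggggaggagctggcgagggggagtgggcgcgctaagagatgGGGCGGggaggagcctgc
The Cd36 window, chr5:17835897-17836146, precedes a start 52905 bases inside the gene as the authors' table gives it, and 43.2% of its bases are G or C. It holds 1 AGGTCA site, on the minus strand of the gene, 1 CCAAT box and 2 GC boxes. The Slc27a1 window, chr8:71568621-71568870, is 66.4% G or C and holds 1 CCAAT box. The Acsl1 window, chr8:46470787-46471036, ends at the base before the gene's start, is 72.0% G or C and holds 4 GC boxes. The windows not shown differ from these. Slc27a1 has 1 GC box in window 2, and 3 GC boxes and 1 CCAAT box in window 3. Acsl1 has 2 CCAAT boxes and no GC box in window 2. Over all 32851 promoter windows of this length, 14.0% hold AGGTCA, 0.0335% the direct repeat, 32.7% the GC box, 33.8% the CCAAT box and 12.4% TATAAA. A match describes letters and is no site of binding, and these motifs are common in the windows of other genes.

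The table holds only abundant genes, and each library has 12115183 to 14208853 listed counts, which are not library depths. Levels are given as CPM, counts scaled to these sums as edgeR does, after adjustment by trimmed mean of M-values (TMM). Of 16 fat cell markers 15 are listed, and 0 of 8 retina markers, a tissue of which the extraction protocol in the labels speaks. CPX 6 and CPX 4 stood apart: the mean log2 CPM of the 15 fat cell markers was 8.15 in CPX 6 and 11.52 in CPX 4, against 10.16 to 10.96 in the other 7 libraries. The 8 listed B cell markers averaged 9.0 on the log2 CPM scale in CPX 6 and 6.34 to 7.94 in the EA libraries, against -0.28 to 1.60 in the other libraries. The mean of 10 mitochondrially encoded genes was 12.69 on that scale in CPX 4, against 9.83 to 11.07 elsewhere. Differences that involve CPX are therefore also given without CPX 6 and without CPX 4.

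The 6 genes together took 1.55 to 2.76% of the listed counts in EA, 2.99 to 4.03% in MPX and 0.469 to 2.99% in CPX, the lowest in CPX 6. Wilson 95% intervals around these shares reach at most 0.0107 percentage points to either side and cover counting error only. The smallest count of any of the 6 genes was 338, for Gpihbp1 in CPX 6, so the spread between libraries and not counting error sets the precision below. In bulk tissue, fewer cells of a type and less RNA per cell cannot be told apart. CPX 6 was the lowest library for each of the 6 genes. EA 8 was the next lowest for Lpl, Gpihbp1, Cd36, Acsl1 and Fabp4.

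Lpl, the lipase itself, was lower in every EA library than in every MPX library. It had 7723, 4981 and 3215 CPM in EA 5, 7 and 8, 7844, 15205 and 12109 CPM in MPX 2, 5 and 7, against 9639, 1676 and 10737 CPM in CPX 4, 6 and 8. The gap between the highest EA and the lowest MPX library was small, and CPX overlapped both groups. Gpihbp1, the capillary carrier of the lipase, had 134, 173 and 84.3 CPM in EA, 153, 275 and 179 CPM in MPX, against 247, 25.9 and 149 CPM in CPX, in the same order of libraries. All 3 groups overlapped. The fold between its highest and lowest library was 10.6.

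**Figure D1:**
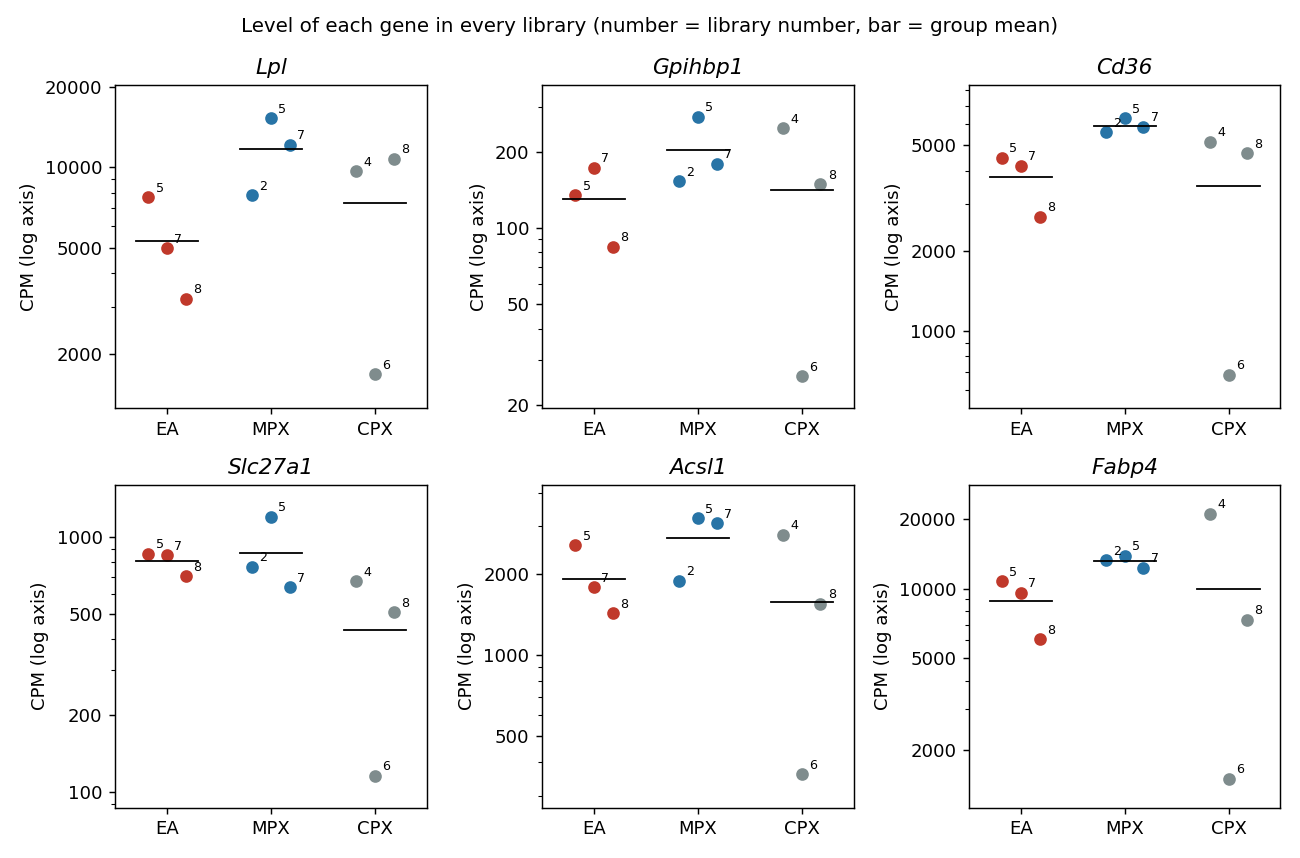
CPM (log axis) of each of the 6 genes in the 9 libraries, with a bar at the mean of each group and the library number beside each point. CPX 6 is the lowest point in all 6 panels, and EA 8 lies lowest within EA for each gene.

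Cd36, the fatty acid receptor of the plasma membrane, had 4461, 4163 and 2684 CPM in EA, 5567, 6291 and 5851 CPM in MPX, against 5128, 683 and 4642 CPM in CPX. Every MPX library lay above every EA library and above every CPX library. Slc27a1, which encodes the fatty acid transport protein FATP1, had 861, 848 and 703 CPM in EA, 765, 1207 and 637 CPM in MPX, against 673, 116 and 508 CPM in CPX. It overlapped between EA and MPX, and it was the only one of the 6 genes for which every EA library lay above every CPX library.

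Acsl1, the long-chain acyl-CoA synthetase of the activation step, had 2549, 1780 and 1429 CPM in EA, 1886, 3208 and 3077 CPM in MPX, against 2789, 363 and 1550 CPM in CPX. EA and MPX overlapped through EA 5 and MPX 2. Fabp4, the cytosolic carrier, was the most abundant of the 6 per kilobase. It had 10773, 9628 and 6061 CPM in EA, 13332, 13890 and 12359 CPM in MPX, against 21191, 1500.4 and 7348 CPM in CPX. EA and MPX did not overlap, while the CPX libraries lay on both sides of both groups and spanned 14.1-fold.

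Levels of different genes are comparable only per length. On the scale of CPM per kilobase of the gene length in the authors' table, the order was Fabp4, Cd36, Lpl, Acsl1, Slc27a1 and Gpihbp1 in 9 of 9 libraries. That length sums all annotated exons. With the length of the principal GENCODE transcript instead, Fabp4 averaged 9845 ± 2742 CPM per kilobase in EA, 14723 ± 866 in MPX and 11175 ± 11285 in CPX (SD, n = 3 each). Lpl then stood above Cd36 in 7 of 9 libraries, with EA 7 and EA 8 as the exceptions, so these neighbours have no settled order. On the same scale Slc27a1 averaged 288 ± 31.4 in EA, 311 ± 107 in MPX and 155 ± 102 in CPX, and Gpihbp1 158 ± 53.8 in EA, 245 ± 77.8 in MPX and 171 ± 135 in CPX. These last neighbours also overlapped, and Gpihbp1 stood above Slc27a1 in CPX 4.

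EA was set against MPX to ask how the electroacupuncture libraries differ from a group without that label. All 6 genes averaged lower in EA, though Slc27a1 stood at a log2 difference of 0.05 when scaled to fat cell markers, and the differences did not pass. By edgeR's quasi-likelihood test and Benjamini-Hochberg adjustment, 0 of 3958 genes (0%) had an adjusted p under 0.05 in this comparison, and 202 (5.10%) had an unadjusted p under 0.05, among them 0 of the 6. DESeq2 called 49 genes, none of the 6, and limma voom called 0. The direction was negative for 6 of 6 genes and for 48.6% of all genes, with a median log2 difference of -0.61 over the 6 and 0.01 over all genes. The 15 listed fat cell markers were negative for 11 and positive for 4, with a median of -0.34. Of 17 listed endothelial markers, 15 were negative and 2 positive, with a median of -0.39. The direction was thus not particular to the 6 genes. Of 11 listed macrophage markers, 9 were positive and 2 negative. Lpl, Cd36 and Fabp4 were lower in every EA library than in every MPX library, as were 19.0% of all genes.

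Lpl had the largest difference of the 6. It had means of 5307 ± 2272 CPM in EA and of 11720 ± 3696 CPM in MPX (SD, n = 3 each), with the log2 difference at -1.14 (SE 0.70, 95% interval -2.74 to 0.46, edgeR adjusted p = 0.775). Cd36 had means of 3769 ± 951 CPM in EA and of 5903 ± 365 CPM in MPX, with the log2 difference at -0.65 (SE 0.66, edgeR adjusted p = 0.789). The interval for Cd36 ran from -2.16 to 0.86, which holds differences of either sign. Gpihbp1 had means of 131 ± 44.4 CPM in EA and of 203 ± 64.2 CPM in MPX, with the log2 difference at -0.63 (SE 0.67, edgeR adjusted p = 0.799). For Fabp4 the means were 8821 ± 2457 CPM in EA and were 13194 ± 775 CPM in MPX, with the log2 difference at -0.58 (SE 0.79, edgeR adjusted p = 0.820). Acsl1 had means of 1919 ± 573 CPM in EA and of 2724 ± 728 CPM in MPX, with the log2 difference at -0.51 (SE 0.66, edgeR adjusted p = 0.815). Slc27a1 had the smallest difference, at 804 ± 87.8 CPM in EA and at 869 ± 299 CPM in MPX, with the log2 difference at -0.11 (95% interval -1.43 to 1.20, edgeR adjusted p = 0.959). Its sign rested on MPX 5, without which the log2 difference was 0.17. Single libraries also moved other values: without EA 8 the log2 difference was -0.40 for Gpihbp1, -0.37 for Fabp4 and -0.33 for Acsl1. Without MPX 5 it was -0.38 for Gpihbp1, and without EA 5 it was -0.76 for Acsl1.

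The fit behind these errors shares its spread over all 9 libraries, CPX 6 and CPX 4 included. With only EA and MPX in the fit, Lpl had a log2 difference of -1.17 (edgeR unadjusted p = 0.0299, adjusted p = 0.121) and Cd36 one of -0.68 (edgeR unadjusted p = 0.0462, adjusted p = 0.149). That fit called 84 genes, 62 of them higher in EA, and the 6 genes were not among them.

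**Figure D2:**
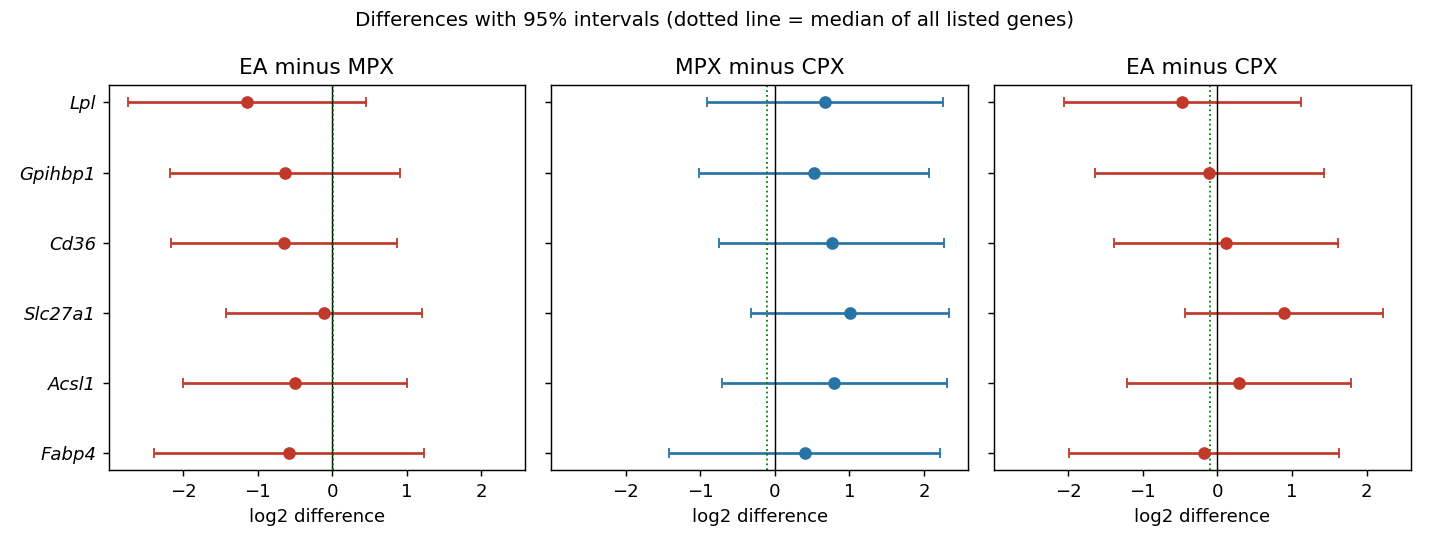
Log2 differences with 95% intervals for the 6 genes in the 3 comparisons, from edgeR's quasi-likelihood fit of all 9 libraries, with a dotted line at the median of all listed genes. Each interval crosses 0, all 6 points lie below 0 for EA against MPX (Slc27a1 at 0.05 when scaled to fat cell markers), and all 6 lie above 0 for MPX against CPX.

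MPX against CPX compares the groups without an electroacupuncture label. All 6 genes averaged higher in MPX, and again the differences did not pass the test. By edgeR's quasi-likelihood test 0 of 3958 genes (0%) passed the adjusted threshold, and 522 (13.2%) had an unadjusted p under 0.05, 0 of them among the 6. DESeq2 called 201 genes and limma voom 0, and neither called any of the 6. A positive difference was seen for 6 of 6 genes and for 40.7% of all genes, with medians of 0.72 and -0.11 on the log2 scale. The endothelial markers were positive for 16 and negative for 1, with a median of 0.61. The fat cell markers were positive for 10 and negative for 5, with a median of 0.21. Cd36 was higher in every MPX library than in every CPX library, as were 8.46% of all genes. MPX against CPX shares the MPX libraries with EA against MPX, so the signs of those comparisons are not separate evidence.

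Slc27a1 had the largest difference and means of 869 ± 299 CPM in MPX and of 432 ± 286 CPM in CPX (SD, n = 3 each), with the log2 difference at 1.01 (SE 0.58, 95% interval -0.32 to 2.34, edgeR adjusted p = 0.438). Acsl1 had means of 2724 ± 728 CPM in MPX and of 1567 ± 1213 CPM in CPX, with the log2 difference at 0.80 (SE 0.66, edgeR adjusted p = 0.560). Cd36 had means of 5903 ± 365 CPM in MPX and of 3485 ± 2438 CPM in CPX, with the log2 difference at 0.76 (SE 0.66, edgeR adjusted p = 0.577). Lpl, Gpihbp1 and Fabp4 had log2 differences of 0.67 (95% interval -0.92 to 2.26), 0.52 (-1.02 to 2.07) and 0.40 (-1.41 to 2.21). These values moved with single CPX libraries. Without CPX 6 the log2 differences were 0.56 for Slc27a1, 0.33 for Acsl1, 0.27 for Cd36, 0.20 for Lpl, 0.03 for Gpihbp1 and -0.12 for Fabp4. Without CPX 4 they were 1.51, 1.54, 1.18, 0.95, 1.24 and 1.60 in the same order. Without CPX 8, Lpl moved to 1.07, Gpihbp1 to 0.59 and Fabp4 to 0.24.

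EA against CPX showed no shared direction, with 3 genes higher in EA and 3 lower, a median log2 difference of 0.00 over the 6 and -0.09 over all genes. EdgeR's quasi-likelihood test called 0 of 3958 genes (0%), and 117 (2.96%) had an unadjusted p under 0.05, 0 of them among the 6. DESeq2 called 5 genes, none of the 6, and limma voom called 0. Slc27a1 had means of 804 ± 87.8 CPM in EA and of 432 ± 286 CPM in CPX, with the log2 difference at 0.90 (SE 0.58, 95% interval -0.43 to 2.22, edgeR adjusted p = 0.997). It was higher in every EA library than in every CPX library, which held for 2.10% of all genes. Both comparisons with CPX share its libraries. Without CPX 6 the log2 difference of Slc27a1 was 0.43, and without CPX 4 it was 1.36.

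The other 5 genes lay closer to 0 in EA against CPX. Their log2 differences were 0.29 for Acsl1, 0.11 for Cd36, -0.11 for Gpihbp1, -0.18 for Fabp4 and -0.47 for Lpl (SE 0.65 to 0.79, edgeR adjusted p 0.997 to 0.998). Without CPX 6 these became -0.19, -0.39, -0.61, -0.71 and -0.95, and without CPX 4 they became 1.00, 0.50, 0.57, 0.99 and -0.23. The sign turned with a single CPX library for Acsl1, Cd36, Gpihbp1 and Fabp4. Lpl had a negative difference without either library, but without CPX 8 it was -0.10, close to 0.

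The level of fat cell markers differed widely between libraries, so the 6 genes were also set against the 15 listed fat cell markers, as the log2 level of the gene minus the mean log2 level of the markers. This scale was chosen after the data were seen. The markers were Car3, Cfd, Plin4, Pnpla2, Cidec, Adipoq, Plin1, Pck1, Dgat2, Lipe, Retn, Gpd1, Adrb3, Slc2a4 and Acvr1c. They did not move together, and in EA against MPX their log2 differences ran from -1.65 to 1.03. Adrb3 had 32.7 CPM in MPX 5, against 335 and 326 CPM in MPX 2 and 7. That lowers the marker mean in MPX 5 and raises each gene set against it. On the marker scale CPX 6 was the lowest library for none of the 6 genes. The range over the 9 libraries was 1.21 for Fabp4, 1.26 for Cd36, 1.31 for Gpihbp1, 1.34 for Acsl1, 1.81 for Slc27a1 and 1.84 for Lpl. Against 17 endothelial markers the ranges were 3.34 for Fabp4, 2.43 for Cd36, 2.77 for Gpihbp1, 2.46 for Acsl1, 2.10 for Slc27a1 and 2.05 for Lpl. CPX 6 was the lowest library for each gene on the endothelial scale, and CPX 4 the highest for all but Slc27a1. Without CPX 4 and CPX 6 each gene had the narrower range on the endothelial scale. Cd36, for example, then ran from 4.313 to 4.969 there and from 1.235 to 2.064 on the fat cell scale.

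Relative to the fat cell markers, Lpl stood at 2.09, 1.59 and 1.50 in EA, at 2.13, 3.34 and 2.61 in MPX and at 1.71, 2.56 and 2.54 in CPX on the log2 scale. The EA values were still all below the MPX values, with EA 5 and MPX 2 nearly equal. Cd36 stood at 1.30, 1.33 and 1.24 in EA, at 1.64, 2.06 and 1.56 in MPX and at 0.80, 1.27 and 1.33 in CPX. Fabp4 stood at 2.57, 2.54 and 2.41 in EA, at 2.90, 3.21 and 2.64 in MPX and at 2.85, 2.40 and 1.99 in CPX. Lpl, Cd36 and Fabp4 stayed lower without overlap in EA than in MPX, as did 6.16% of all genes on this scale. With scaling to the fat cell markers the median log2 difference over all genes was 0.25, against 0.01 with TMM. On the marker scale 16.0% of all genes were higher without overlap in EA than in MPX, against 21.5% in CPM.

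Slc27a1 stood at -1.08, -0.96 and -0.70 in EA, at -1.22, -0.32 and -1.64 in MPX and at -2.13, -1.29 and -1.86 in CPX relative to the fat cell markers. Here too each EA library was above each CPX library, which held for 0.404% of all genes on this scale. That share depends on CPX 6, whose low marker level raises other genes there. With scaling to the fat cell markers, the median log2 difference over all genes in EA against CPX was -1.17. Without CPX 6 it was 0.58, so the low share does not make Slc27a1 a rare case. Acsl1 stood at 0.49, 0.11 and 0.33 in EA, at 0.08, 1.09 and 0.63 in MPX and at -0.08, 0.36 and -0.25 in CPX, with overlap between all groups. Gpihbp1, made by endothelial cells, stood at -3.75, -3.26 and -3.76 in EA, at -3.54, -2.45 and -3.47 in MPX and at -3.57, -3.45 and -3.63 in CPX.

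**Figure D3:**
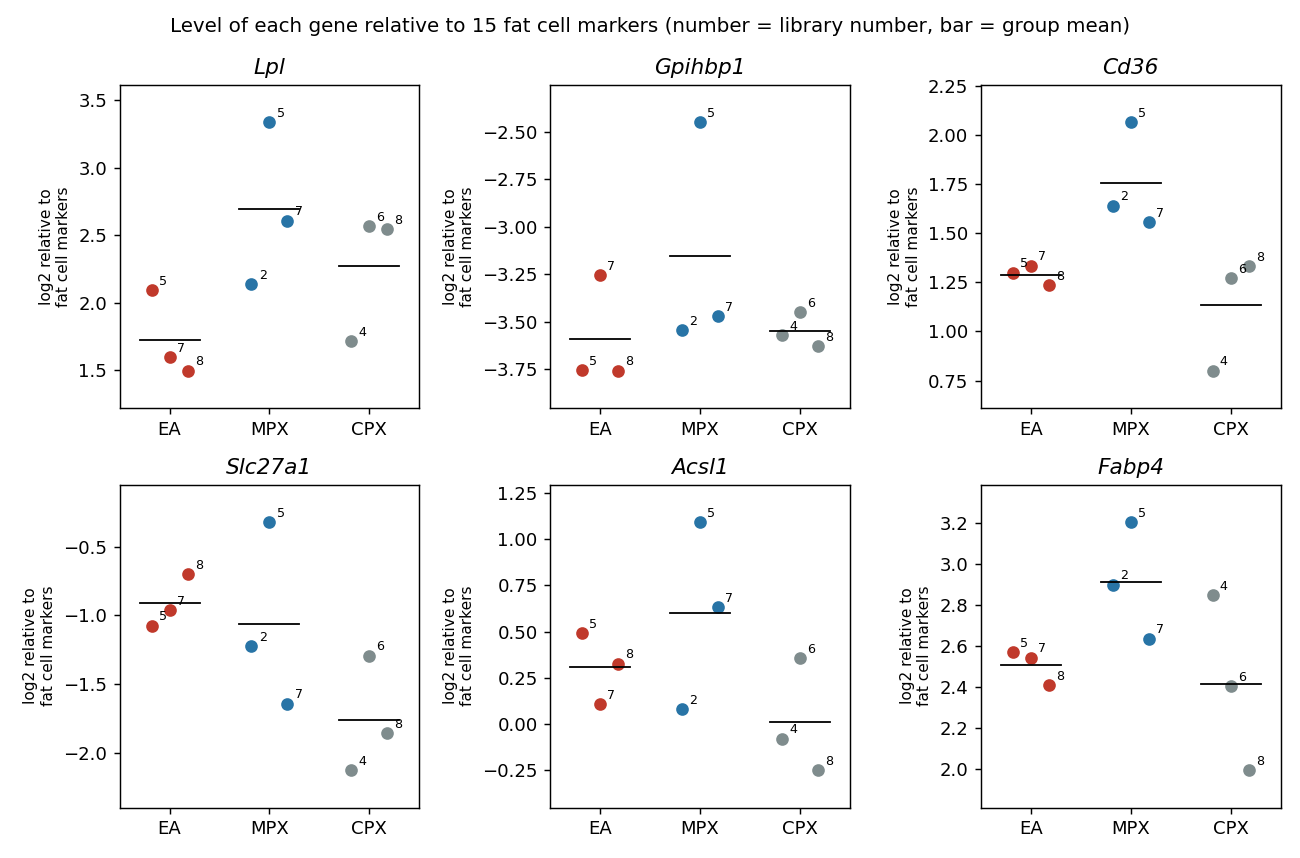
Log2 level of each gene relative to the mean of 15 fat cell markers in the 9 libraries, by group, with a bar at the group mean and the library number beside each point. CPX 6 no longer lies apart, and Slc27a1 in EA (-1.08 to -0.70) lies above CPX (-2.13 to -1.29).

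Against the endothelial markers Gpihbp1 stood at -0.19, -0.14 and -0.68 in EA, at -0.30, 0.18 and -0.06 in MPX and at 1.01, -1.76 and -0.32 in CPX. With all libraries Gpihbp1 thus varied less on the fat cell scale than on that of the cell type known to make it, but this rested on CPX 4 and CPX 6. In the remaining libraries it ran from -0.68 to 0.18 against the endothelial markers and, more widely, from -3.76 to -2.45 against the fat cell markers. The summed level of the 17 endothelial markers was 2623 to 3745 CPM in EA, 3686 to 4800 CPM in MPX and 2014 to 3689 CPM in CPX. The 15 fat cell markers gave 35950 to 51580 CPM in EA, 46390 to 52010 CPM in MPX and 8509 to 100600 CPM in CPX. A few abundant markers weigh most in this sum: in CPX 4, Car3 had 32427 CPM and Cfd 33449 CPM. The 8 B cell markers summed to 661 to 1978 CPM in EA, 9.41 to 26.1 CPM in MPX and 13.6 to 4526 CPM in CPX. The 11 macrophage markers summed to 3070 to 7412 CPM in EA, 1731 to 4901 CPM in MPX and 1725 to 4425 CPM in CPX. The part of these cell types in the differences of the 6 genes was not tested.

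Ratios of counts within a library do not depend on scaling, and 3 of them were compared by an exact two-sided permutation test, which cannot go below p = 0.1 with 3 libraries against 3. Cd36 to Slc27a1, the transport pair, was 5.18, 4.91 and 3.82 in EA, 7.28, 5.21 and 9.19 in MPX and 7.62, 5.91 and 9.14 in CPX. Every EA library lay below every library of the other groups, with EA 5 and MPX 5 nearly equal. How often other pairs of genes separate in this way was not counted. The mean log2 ratio differed by -0.61 for EA against MPX and by -0.70 for EA against CPX, each with exact permutation p = 0.1, the smallest p this design allows, and 0.45 after adjustment over the 9 ratio tests. Between MPX and CPX the difference was -0.08 (exact permutation p = 0.8).

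Lpl to Gpihbp1, the enzyme and its carrier, had log2 ratios of 5.84, 4.85 and 5.25 in EA, 5.68, 5.79 and 6.08 in MPX and 5.28, 6.01 and 6.17 in CPX. The groups overlapped, and the differences were -0.53 for EA against MPX (exact permutation p = 0.3), 0.03 for MPX against CPX (p = 0.9) and -0.51 for EA against CPX (p = 0.2). Leaving out single libraries gave -0.80 (without EA 5) to -0.30 (without EA 7) for EA against MPX and -0.78 (without CPX 4) to -0.27 (without EA 7) for EA against CPX. Fabp4 to Fabp5, the second fatty acid binding protein of fat cells, had log2 ratios of 5.59, 6.56 and 5.46 in EA, 5.95, 5.29 and 5.68 in MPX and 6.38, 3.92 and 6.04 in CPX. Its differences were 0.23 for EA against MPX (exact permutation p = 0.7), 0.20 for MPX against CPX (p = 1.0) and 0.43 for EA against CPX (p = 0.8), and without CPX 6 the last pair of values was -0.57 and -0.34.

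**Figure D4:**
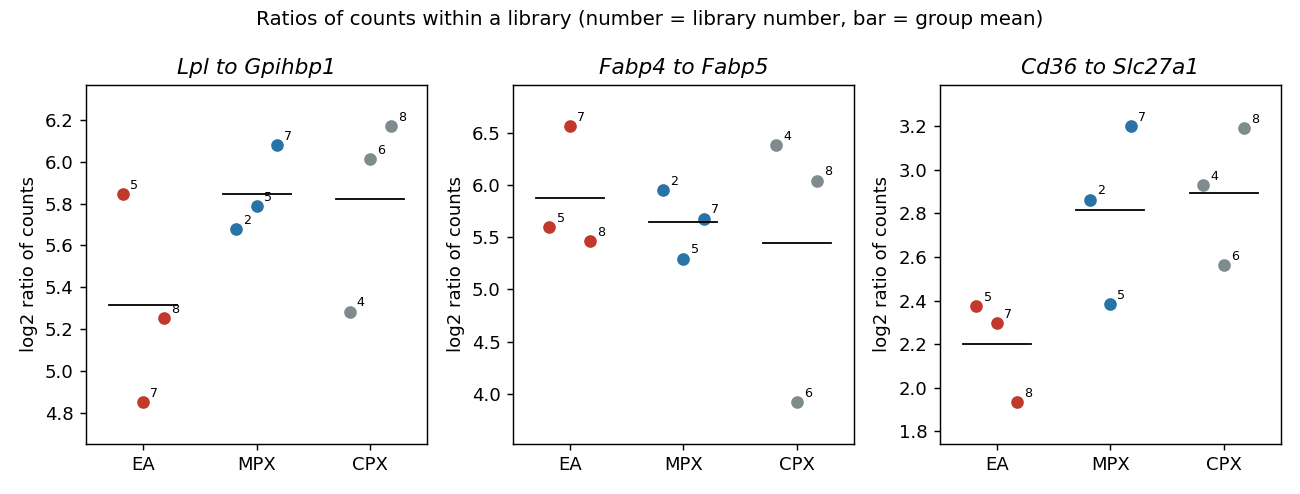
Log2 ratio of counts within each library for Lpl to Gpihbp1, Fabp4 to Fabp5 and Cd36 to Slc27a1, by group, with a bar at the group mean and the library number beside each point. For Cd36 to Slc27a1 the EA points (1.93 to 2.37) lie below all MPX and CPX points, and the other ratios overlap between groups.

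Genes that work beside the 6 were counted from lists of the same pathway. Listed here are 7 of 18 genes of lipoprotein lipolysis, 6 of 15 of fatty acid transport, 4 of 17 of activation, 2 of 11 of fatty acid binding and 12 of 18 regulators. In each of the 3 comparisons 0 of them passed edgeR's adjusted threshold (0% of all genes), and 0 had an unadjusted p under 0.05. Over all genes that last share was 5.10% in EA against MPX, 13.2% in MPX against CPX and 2.96% in EA against CPX. In EA against MPX the transport partners were positive for 1 and negative for 5, with a median log2 difference of -0.51 against 0.01 over all genes. Cav1, the coat protein of caveolae, had means of 1604 ± 751 CPM in EA and of 3338 ± 633 CPM in MPX, with the log2 difference at -1.06 (SE 0.75, edgeR adjusted p = 0.775). Cav2 and Cavin1, which build the same membrane pits, had log2 differences of -0.97 and -0.87, and all 3 genes were lower in every EA library than in every MPX library, as were 19.0% of all genes.

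In the same comparison the lipolysis partners split into 3 positive and 4 negative. Vldlr, a receptor for triglyceride-rich lipoproteins, had means of 115 ± 46.8 CPM in EA and of 236 ± 69.6 CPM in MPX, with the log2 difference at -1.04 (SE 0.58, edgeR adjusted p = 0.775). Sel1l, needed to bring the lipase out of the endoplasmic reticulum, had a log2 difference of -0.41, and Apoe, an apolipoprotein of remnants, one of 0.50. The activation partners split into 2 positive and 2 negative. Dbi, which binds acyl-CoA, had means of 771 ± 267 CPM in EA and of 1456 ± 104 CPM in MPX, with the log2 difference at -0.92 (SE 0.73). Both binding partners were negative, Fabp5 at -0.81 and Rbp4, the plasma carrier of retinol, at -0.72.

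Of the 12 listed regulators, 8 were positive and 4 negative in EA against MPX, with a median log2 difference of 0.18. Srebf1, a transcription factor of lipid synthesis, had means of 632 ± 49.2 CPM in EA and of 449 ± 50.3 CPM in MPX, with the log2 difference at 0.49 (SE 0.37, edgeR adjusted p = 0.775). Ncor1, a corepressor of nuclear receptors, had a log2 difference of 0.29. Both were higher in every EA library than in every MPX library, as were 21.5% of all genes. Pparg had means of 179 ± 42.0 CPM in EA and of 249 ± 18.2 CPM in MPX, with the log2 difference at -0.48 (SE 0.67, edgeR adjusted p = 0.820).

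In MPX against CPX the lipolysis partners were positive for 7 of 7, where 40.7% of all genes were. Angptl4, a secreted inhibitor of lipoprotein lipase, had means of 887 ± 245 CPM in MPX and of 458 ± 275 CPM in CPX, with the log2 difference at 0.95 (SE 0.56, edgeR adjusted p = 0.444). Scarb1, a lipoprotein receptor, and Vldlr had log2 differences of 0.38 and 0.86. The transport partners were positive for 5 of 6, and Cavin1 stood at 2671 ± 435 CPM in MPX and at 1060 ± 705 CPM in CPX without overlap (8.46% of all genes), with the log2 difference at 1.33 (SE 0.66, edgeR adjusted p = 0.404). Activation partners were positive for 1 of 4, binding partners for 1 of 2 and regulators for 4 of 12. Without CPX 6 the lipolysis partners were positive for 5 of 7, the transport partners for 3 of 6, and the log2 differences were 0.52 for Angptl4, 0.27 for Scarb1, 0.41 for Vldlr and 0.86 for Cavin1. Activation, binding and regulator counts without CPX 6 were again 1 of 4, 1 of 2 and 4 of 12. Without CPX 4 the lipolysis and transport counts were 7 of 7 and 6 of 6, those of activation, binding and regulators were 2 of 4, 2 of 2 and 8 of 12, and the same genes stood at 1.20, 0.43, 1.16 and 1.66.

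In EA against CPX the partners were positive for 4 of 7 in lipolysis, 3 of 6 in transport, 1 of 4 in activation, 0 of 2 in binding and 6 of 12 regulators, where 39.0% of all genes were. In the same order the counts were 5, 2, 2, 0 and 4 without CPX 6, and 6, 4, 1, 1 and 8 without CPX 4. Scarb1 had means of 257 ± 34.5 CPM in EA and of 190 ± 30.6 CPM in CPX without overlap (2.10% of all genes), with the log2 difference at 0.44 (SE 0.22, edgeR adjusted p = 0.997). Angptl4 had means of 801 ± 264 CPM in EA and of 458 ± 275 CPM in CPX, with the log2 difference at 0.81. Acsf2, an acyl-CoA synthetase of mitochondria, had a log2 difference of 0.45, Rbp4 one of -1.55 and Pparg one of -0.85. Without CPX 6 these were 0.31 for Scarb1, 0.37 for Angptl4, 0.57 for Acsf2, -2.10 for Rbp4 and -1.36 for Pparg. Without CPX 4 they were 0.45, 1.03, 0.38, -0.50 and -0.07 in the same order, and in no such fit did a partner or regulator pass edgeR's adjusted threshold.

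The genes most like each of the 6 were found by the root mean square (RMS) difference between log2 CPM profiles over the 9 libraries, each centred on its own mean. The median RMS to all genes was 0.96 to 1.08, and the measure is a description of these libraries, in which CPX 6 weighs heavily. Cd36 was closest to Tspan12, a tetraspanin (0.14), Plin1, the coat protein of the fat cell's lipid droplet (0.14), and Prkar2b, a regulatory subunit of protein kinase A (0.18). Acsl1 was closest to Gpd1, the glycerol-3-phosphate dehydrogenase that feeds triglyceride synthesis (0.15), Tmem120a (0.21) and Fitm2, which promotes lipid droplet formation (0.21). For Lpl the nearest were Vldlr (0.18), Glb1l2 (0.23) and Sparc, a secreted matrix protein (0.23). Without CPX 6, Vldlr and Gpd1 were still the nearest genes to Lpl and Acsl1, but Tmem120a and Fitm2 were at ranks 12 and 20 for Acsl1, and Tspan12, Plin1 and Prkar2b at ranks 21, 29 and 84 for Cd36.

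Fabp4 was closest to Cmbl (0.17), Mgst3, a microsomal glutathione transferase (0.20), and Tmem205 (0.23), and Gpihbp1 to Art3 (0.14), Tmem179 (0.18) and Phlda3 (0.20). Slc27a1 had the least close neighbours of the 6, Hspb1, a small heat shock protein (0.28), Epb41l1 (0.28) and Nos3, the endothelial nitric oxide synthase (0.29). Without CPX 6, Cmbl, Mgst3 and Tmem205 were at ranks 14, 9 and 15 for Fabp4, and Art3, Tmem179 and Phlda3 at ranks 3, 7 and 12 for Gpihbp1. For Slc27a1, Hspb1 was then at rank 100, Epb41l1 at rank 139 and Nos3 at rank 4. Among the 6 genes themselves, Gpihbp1 and Cd36 were closest (0.27), then Cd36 and Acsl1 (0.28), and Lpl and Slc27a1 were farthest apart (0.70). Gpihbp1 had a median RMS of 0.39 to the fat cell markers and of 0.68 to the endothelial markers, while for Slc27a1 these medians were 0.59 and 0.67.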

How the data were processed

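Adipose tissue RNA of 9 libraries, 3 each in EA, MPX and CPX, was prepared with a TruSeq RNA kit, per the labels. The submitters' processing notes name HISAT2 2.0.5 and mm10. Which program counted reads, on which annotation and with which strand setting, is not given in the sources used here. The authors deposited raw counts, per the file headers, and the table as used here holds 3958 abundant genes with totals of 8471 to 3653827 counts. Its text ends inside the last row, and 11 gene names were restored from the gene ID. Less abundant genes were not analysed here, and CPM relative to this table exceed those of a whole library.

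Counts were tested with edgeR 4.0.16 (R 4.3.3): TMM factors (0.753 in CPX 4), filterByExpr, which removed no gene, robust quasi-likelihood estimation on all 9 libraries, and Benjamini-Hochberg adjustment over all 3958 genes of each of 3 contrasts. Intervals use an SE derived from the fit's F statistic. The method was also tested on simulated data. Ratios used exact permutation tests (scipy 1.17.1). Alternatives were other scalings, no filter, DESeq2 1.42.0, limma voom 3.58.1, estimation without the robust option, fits of only the groups compared, left-out libraries, a replicate block and scaling to fat cell markers, the last added after seeing the data. No pair of replicates held near-identical counts (chi-square per degree of freedom at least 71.5).

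The genes and lists were chosen with earlier results of these data known. Every member is named; of each partner list up to 3 genes per contrast, those of smallest p, were eligible and some are given, and Pparg in EA against MPX was named after its values were seen. For each member the 3 nearest genes were named. Brown fat (0 of 6) and skeletal muscle (0 of 9) marker lists had no listed gene.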

Additional observations from a re-analysis of the deposited data

How the results depend on the processing

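Of 378 alternative values of the 6 log2 differences, 352 kept their direction and side of the threshold and 26 reversed, 19 of them in EA against CPX; none of the 6 genes was called under any alternative. The filter removed no gene, so the filter alternative says nothing about stability. Turning the robust option off does not change a log2 difference, and leaving out a library of the group not compared hardly does. Lpl in MPX against CPX, for example, was 0.673 whichever EA library was left out. Many of the 352 values could therefore hardly reverse, and their number overstates stability. For EA against MPX the count of called genes was 84 with only those groups fitted, 80 without CPX 4 and CPX 6, 49 with DESeq2, 23 when scaled to the fat cell markers without CPX 6, and 0 to 23 with 1 library left out. For MPX against CPX it was 201 with DESeq2, 3 with that marker scaling and 0 to 168 with 1 library left out, the highest without CPX 8. For EA against CPX it was 5 with DESeq2, 15 with that marker scaling and 0 to 12 with 1 library left out, the highest without CPX 6. The median over all genes in MPX against CPX was -0.11 with TMM, -1.38 with marker scaling of all 9 libraries and 0.36 with marker scaling without CPX 6. Under marker scaling CPX 6 thus sets its sign. With TMM it was -0.02 without CPX 6 and 0.01 without CPX 4. Replicate numbers 5 and 7 (EA and MPX) and 8 (EA and CPX) are shared, but no label says that they pair libraries, and the correlation of deviations was 0.02, 0.13 and -0.51. With the number as a replicate block, 6 genes were called in EA against MPX. The numbers of CPX 4, CPX 6 and MPX 2 occur in no other group, so in that fit CPX enters only through CPX 8, set against EA 8. The log2 differences in MPX against CPX became -0.61 for Lpl, -0.28 for Gpihbp1 and -0.30 for Cd36. In EA against CPX they became -0.79 for Cd36, -0.12 for Acsl1 and -1.74 for Lpl. On the CPX side these values rest on a single library. Slc27a1 in EA against MPX was 0.05 under marker scaling with and without CPX 6 and -0.33 to 0.17 with 1 library left out. Fabp4 in MPX against CPX ranged from -0.12 to 1.60 over the left-out libraries. In EA against CPX the left-out libraries gave -0.61 to 0.57 for Gpihbp1, -0.39 to 0.50 for Cd36, -0.19 to 1.00 for Acsl1 and -0.71 to 0.99 for Fabp4. There Gpihbp1 was 0.026 with upper quartile factors, 0.22 with no factors, 0.41 with limma voom and 0.031 with marker scaling without CPX 6. Fabp4 was 0.19 with no factors, 0.44 with voom, 0.26 without CPX 4 and CPX 6, and 0.052 and 0.027 with marker scaling with and without CPX 6, and Cd36 was -0.31 without CPX 4 and CPX 6. With group medians in place of means, the Lpl to Gpihbp1 log2 ratio in MPX against CPX became -0.23, and that of Fabp4 to Fabp5 became -0.085, -0.36 and -0.45 in EA against MPX, MPX against CPX and EA against CPX. With 1 library left out, Fabp4 to Fabp5 gave -0.11 to 0.44, -0.57 to 0.66 and -0.34 to 0.89 in that order, and in MPX against CPX Lpl to Gpihbp1 gave -0.24 to 0.20 and Cd36 to Slc27a1 -0.27 to 0.14. The causes were not tested.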
